A study of Mus musculus with 6 samples.

Results

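Apolipoproteins and lipid transfer proteins are secreted proteins that carry fats, sterols and retinol outside cells. The 8 genes described here are Apod, Apoe, Apoc1, Apoc2, Apoa1, Clu, Pltp and Rbp4, taken as all probe sets of the array annotated to exactly 1 of these symbols. They have 15 probe sets, and no probe set annotated to several genes includes a member. Of 12393 genes with at least 1 probe set annotated to them alone, 9248, all 8 members among them, were bright enough to be tested, above a dim level of 6.09 on the log2 scale. The members were chosen on their differences between Bptf KD and control in these same 6 tumours, so those differences are a description and support nothing. Log2 levels are compared between tumours for 1 probe set at a time, never between genes.

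The data are log2 expression levels of 3 Bptf KD tumours and 3 control tumours, 1 Affymetrix array each. All 6 tumours grew for 21 days from injected cells of the mouse mammary tumour line 4T1. The site was a mammary fat pad, the fourth, and the hosts were NSG mice, written Ifrg2r -/- in the labels, a strain without mature lymphocytes. In the Bptf KD group the cells had received short hairpin RNAs against Bptf, the largest subunit of the NURF chromatin remodelling complex, through an MMLV retrovirus. Tumours were taken as whole tissue after macrodissection of necrosis, so RNA of host cells of the fat pad can be in the samples. Fewer cells of a type and less RNA per cell cannot be told apart in such samples. The sources used here do not give the content of the control cells, whether either line is 1 clone, or the age of the mice.

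Median log2 levels lay between 7.59 and 7.69 on the 6 arrays. The tumour labelled Control 2 stood apart: Pearson r across genes, with other tumours of its own group, was 0.934 to 0.939 for Control 2, against 0.984 to 0.988 among the Bptf KD tumours and 0.986 between controls 1 and 3. It also went against its label. The brightest probe set of Bptf gave 9.60, 9.56 and 9.99 in the Bptf KD tumours, and 10.69, 9.77 and 10.59 in controls 1, 2 and 3, a difference of -0.63 that did not pass the test (limma adjusted p = 0.371), and without Control 2 the difference was -0.92 (limma adjusted p = 0.0305). On its 3 other probe sets Control 2 lay below every Bptf KD tumour. Each difference of a member is therefore also given without Control 2. Krt8, a keratin of the mammary epithelium, averaged 14.05 ± 0.12 in Bptf KD and 14.02 ± 0.02 in control tumours (SD, n = 3 each). Epcam, another mammary epithelial marker, averaged 12.72 ± 0.19 in Bptf KD and 11.76 ± 0.65 in control tumours (SD, n = 3 each). It was higher in every Bptf KD tumour than in any control but did not pass the test. Of the 7 measured mammary epithelial genes 3 had a lower mean in Bptf KD and 4 a higher one. Of the milk protein genes, Wap and Csn2 lay below the dim level on average, though Csn2 reached 6.76 in Control 1. Csn3 averaged 8.35 ± 0.16 in Bptf KD and 9.67 ± 0.77 in control tumours, and Lalba 6.21 ± 0.08 in Bptf KD and 6.51 ± 0.14 in control tumours (SD, n = 3 each), both without overlap and neither past the test (limma adjusted p = 0.194 for Csn3 and 0.365 for Lalba).

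Apolipoproteins coat lipoprotein particles and set which receptors and enzymes act on them: Apoe is the ligand of the LDL receptor family, Apoa1 is the main protein of HDL, and the small proteins Apoc1 and Apoc2 adjust lipid uptake and lipoprotein lipase. Apod and Rbp4 are not of that family but lipocalins, small cup-shaped carriers of hydrophobic ligands, and Rbp4 is the plasma carrier of retinol. Pltp moves phospholipids between lipoproteins, and Clu, also called apolipoprotein J, is a secreted chaperone. In fat tissue adipocytes are a known source of Rbp4, and macrophages are known for abundant Apoe.

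The members did not move together. Apod, Rbp4 and Pltp were lower in Bptf KD tumours and passed the test over all genes, at 7.33-fold, 3.66-fold and 2.15-fold. Apoc1 was 4.07-fold lower and Clu 2-fold higher, without overlap of the groups, but neither passed. Apoe, Apoc2 and Apoa1 overlapped between the groups. Thus 3 of 8 members were called lower and 0 higher, by limma with a Benjamini-Hochberg adjusted p below 0.05, and 5 of 8 had an unadjusted p below 0.05, as had 13.5% of all genes tested. Over all 9248 genes 0.811% were called, 0.660% lower and 0.151% higher. The groups did not overlap for 5 of 8 members, against 20.0% of all genes. Since the members were chosen on this contrast, nothing is read from these shares. The median difference was -0.61 over the 8 members and 0.06 over all genes tested.

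**Figure D1:**
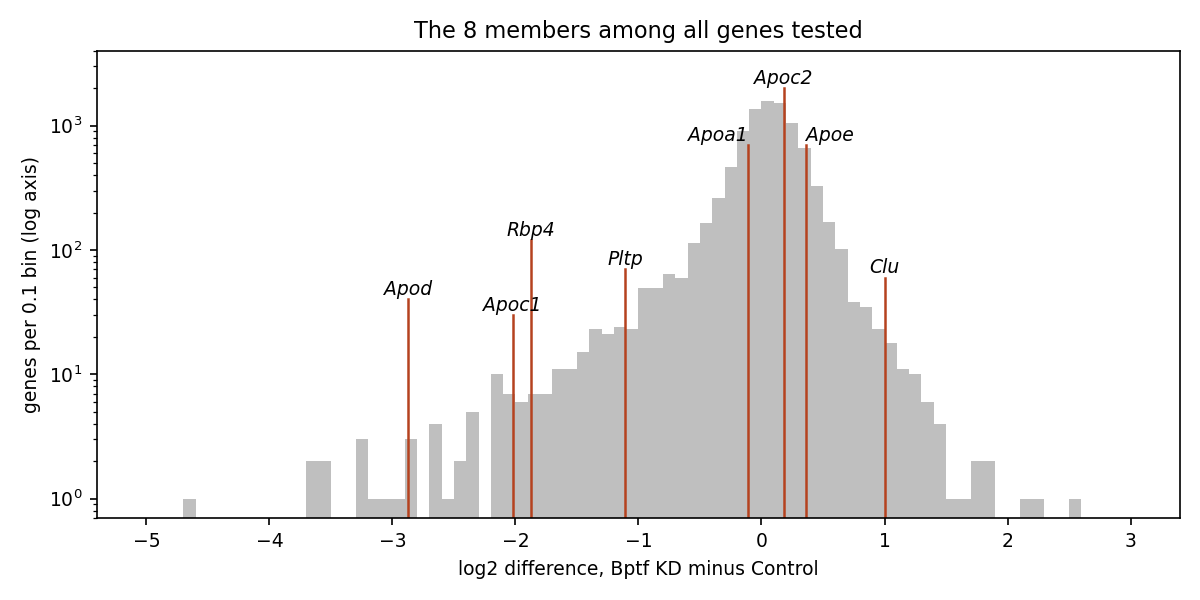
The x axis is the log2 difference, Bptf KD minus control, in bins 0.1 wide, and the y axis, a log scale, is the number of genes of the 9248 tested. Red lines mark the 8 members, whose line heights carry no value: Apod, Apoc1, Rbp4 and Pltp lie in the lower tail, Clu in the upper one, and Apoa1, Apoc2 and Apoe within the bulk of genes.

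Promoter sequences are shown for the 3 members that passed the test, to show what lies before their starts. RefSeq windows of the assembly GRCm38.p6 matched 6 of the 8 members, with 9 windows in all, and each sequence below is the 250 bases before an annotated start, 5′ to 3′ on the strand of the gene. Capitals mark matches, on either strand, to any of 5 short motifs: TATAAA (the TATA box), GGGCGG (the GC box), CCAAT (the CCAAT box), AGGTCA (the core of many nuclear receptor sites) and TTGCNNAA (a core of C/EBP sites). The Apod window is chr16:31314809-31315058 on the minus strand, the Rbp4 window shown chr19:38124812-38125061 on the minus strand, 1 of 2 annotated for that gene, and the Pltp window chr2:164857709-164857958 on the minus strand.
Apod: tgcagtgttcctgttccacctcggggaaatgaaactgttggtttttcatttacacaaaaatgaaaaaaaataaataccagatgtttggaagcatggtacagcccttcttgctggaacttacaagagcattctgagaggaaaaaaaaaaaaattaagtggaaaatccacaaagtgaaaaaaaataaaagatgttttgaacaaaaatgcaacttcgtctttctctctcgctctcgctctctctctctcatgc
Rbp4: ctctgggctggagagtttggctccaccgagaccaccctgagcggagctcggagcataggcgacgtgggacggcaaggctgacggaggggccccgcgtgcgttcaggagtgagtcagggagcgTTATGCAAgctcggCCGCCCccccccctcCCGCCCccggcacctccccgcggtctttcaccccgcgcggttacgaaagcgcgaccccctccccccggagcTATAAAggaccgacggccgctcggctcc
Pltp: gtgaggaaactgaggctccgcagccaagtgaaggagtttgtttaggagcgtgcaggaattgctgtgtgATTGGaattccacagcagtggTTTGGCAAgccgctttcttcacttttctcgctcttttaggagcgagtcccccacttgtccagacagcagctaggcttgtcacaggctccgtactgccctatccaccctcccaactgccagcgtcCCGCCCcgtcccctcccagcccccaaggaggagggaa

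These windows differ in composition, with 36.4% G and C before Apod, 70.8% in the Rbp4 window shown and 57.6% before Pltp. The Apod window, rich in runs of a and in a pyrimidine stretch of repeated tc at its end, holds none of the 5 motifs. The Rbp4 window shown holds a TATA box at -28 to -23 relative to the start, GC boxes on the opposite strand at -114 to -109 and at -99 to -94, and the C/EBP core on the opposite strand at -128 to -121. The other Rbp4 window, chr19:38125322-38125571 on the minus strand, is 40.8% G and C and holds 1 CCAAT box, on the opposite strand at -162 to -158, and none of the other motifs. In the Pltp window the CCAAT box lies at -182 to -178, the C/EBP core at -161 to -154 and a GC box at -37 to -32, all on the opposite strand. No matches overlap in these 3 windows. A match is a description of letters and no site. Over all 32851 windows of the table, 12.4% hold the TATA box, 32.7% the GC box, 33.8% the CCAAT box, 14.0% the nuclear receptor core and 9.56% the C/EBP core.

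Apod, the lipocalin apolipoprotein D, was the member with the largest difference, which ranked 12 by size among the 9248 genes. Its single probe set read 7.22, 7.57 and 7.09 in Bptf KD tumours 1, 2 and 3, and of 9.65, 11.07 and 9.78 in controls 1, 2 and 3. Every Bptf KD tumour lay below every control, and within each group tumour number 2 was the highest. The means were 7.29 ± 0.25 in Bptf KD and 10.17 ± 0.79 in control tumours (SD, n = 3 each), a log2 difference of -2.87 (SE 0.38) with a limma adjusted p of 0.0385. The difference is larger than the spread in either group, and without Control 2 it was -2.42.

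Rbp4, retinol binding protein, showed the same picture at a smaller size. Its levels were 6.77, 7.40 and 6.63 in the Bptf KD tumours, and 8.63, 9.31 and 8.48 in the controls. The groups did not overlap, and again Bptf KD 2 and Control 2 were the highest of their groups. Means of 6.93 ± 0.41 in Bptf KD and 8.81 ± 0.44 in control tumours (SD, n = 3 each) gave a difference of -1.87 (SE 0.29) and a limma adjusted p of 0.0483. Without Control 2 the difference was -1.62.

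Pltp, the phospholipid transfer protein, had the smallest spread of the members that passed. Its brighter probe set gave 8.88, 9.08 and 9.18 in the Bptf KD tumours, and 10.13, 10.01 and 10.32 in the controls. The groups lay apart, and Control 2 was here the lowest of the controls, unlike for Apod and Rbp4. The means were 9.05 ± 0.15 in Bptf KD and 10.15 ± 0.16 in control tumours (SD, n = 3 each), a difference of -1.11 (SE 0.14) with a limma adjusted p of 0.0345. The second probe set gave 6.19, 6.65 and 6.61 in the Bptf KD tumours, and 7.39, 6.86 and 7.69 in the controls, 1.78-fold lower in Bptf KD and also without overlap. Leaving out Control 2 gave -1.18 on the brighter and -1.06 on the second probe set.

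The calls of all 3 genes ended without any 1 Bptf KD tumour and without Control 3, at adjusted p between 0.0829 and 0.199, while the directions held in all 15 alternatives. Rbp4 and Pltp also lost the call without Control 1 (adjusted p = 0.0730 for Rbp4 and 0.0602 for Pltp), Rbp4 without the filter (0.0543) or after a second quantile normalisation (0.0532), and Pltp with the mean of its probe sets (0.0782).

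**Figure D2:**
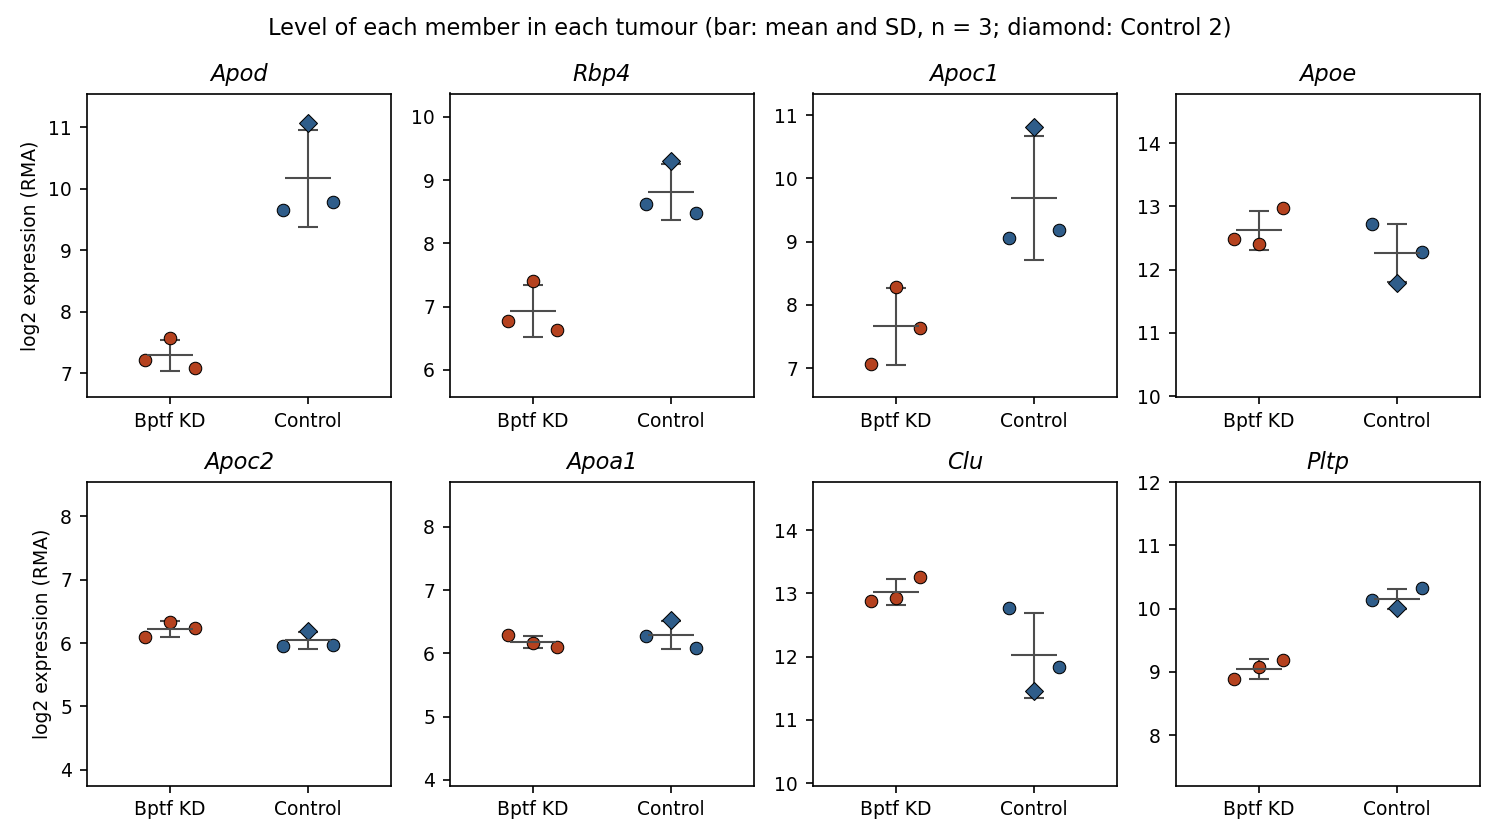
Each panel shows 1 member and the y axis its log2 expression level on the probe set that stands for the gene, with Bptf KD tumours on the left and control tumours on the right, replicates 1 to 3 drawn side by side, a diamond for Control 2 and bars for the mean ± SD. For Apod, Rbp4, Apoc1 and Pltp every Bptf KD tumour lies below every control, for Clu every Bptf KD tumour lies above, and Apoe, Apoc2 and Apoa1 overlap.

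Apoc1 and Apoc2 are neighbours of Apoe, and in the order of genes on chromosome 7 in RefSeq the row runs Apoc2, Apoc4, Apoc1, Apoe. Among these neighbours the groups did not overlap for Apoc1, which was lower in Bptf KD, and Apoc4, which was higher. They overlapped for Apoe and Apoc2. Apoc1 gave 7.07, 8.28 and 7.63 in the Bptf KD tumours, and 9.05, 10.81 and 9.19 in the controls, with Bptf KD 2 and Control 2 again the highest of their groups. Its means of 7.66 ± 0.61 in Bptf KD and 9.68 ± 0.98 in control tumours (SD, n = 3 each) differed by -2.02 (SE 0.52). With this spread the difference did not pass, at a limma adjusted p of 0.167, although the groups did not overlap, but it passed with array weights (adjusted p = 0.0106). Without Control 2, which lay 1.69 above the mean of the other controls, it was -1.46.

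Apoe, the receptor ligand at the other end of that row, gave 12.49, 12.40 and 12.98 in the Bptf KD tumours, and 12.72, 11.79 and 12.28 in the controls. The groups overlapped, with the highest level in Bptf KD 3 and the lowest in Control 2. Means of 12.62 ± 0.31 in Bptf KD and 12.26 ± 0.47 in control tumours (SD, n = 3 each) differed by 0.36 (SE 0.27), with a limma adjusted p of 0.645, and by 0.12 without Control 2. Apoc1 and its neighbour Apoe had opposite signs, but neither passed, and with overlapping groups no direction is read for Apoe.

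Apoc2, the activator of lipoprotein lipase, was near the dim level in every tumour. It gave 6.09, 6.33 and 6.24 in the Bptf KD tumours, and 5.96, 6.19 and 5.97 in the controls. These ranges overlapped, the difference was 0.18 (SE 0.13, limma adjusted p = 0.632) and 0.26 without Control 2, and a change of a gene this dim may not be readable on the array. Apoc4, a neighbour that belongs to the list of other apolipoproteins, averaged 7.65 ± 0.10 in Bptf KD and 7.03 ± 0.13 in control tumours (SD, n = 3 each), a difference of 0.62 that did not pass (limma adjusted p = 0.0950).

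Apoa1, the HDL protein made chiefly in liver and intestine, was likewise dim. The one probe set above the dim level gave 6.29, 6.17 and 6.10 in the Bptf KD tumours, and 6.27, 6.53 and 6.09 in the controls. The groups overlapped, and the difference of -0.11 (SE 0.15, limma adjusted p = 0.815) became 0.0067 without Control 2. Its 3 other probe sets averaged 5.61, 5.25 and 5.07 over the 6 tumours, all below the dim level.

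Clu, the chaperone clusterin, was higher in every Bptf KD tumour than in any control. The probe set that stands for it gave 12.88, 12.92 and 13.26 in the Bptf KD tumours, and 12.77, 11.46 and 11.83 in the controls. Control 1 came within a small distance of the Bptf KD tumours, and Control 2 was the lowest. The means were 13.02 ± 0.21 in Bptf KD and 12.02 ± 0.68 in control tumours (SD, n = 3 each), a difference of 1.00 (SE 0.33) that did not pass (limma adjusted p = 0.263). Without Control 2 it was 0.72, and without Control 1 it was 1.38 and passed at an adjusted p of 0.0478. The 3 other probe sets of Clu were 1.96-fold, 1.88-fold and 2.29-fold higher in Bptf KD, each without overlap, but probe sets of 1 gene share the RNA of the same tumours and are no replicates.

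**Figure D3:**
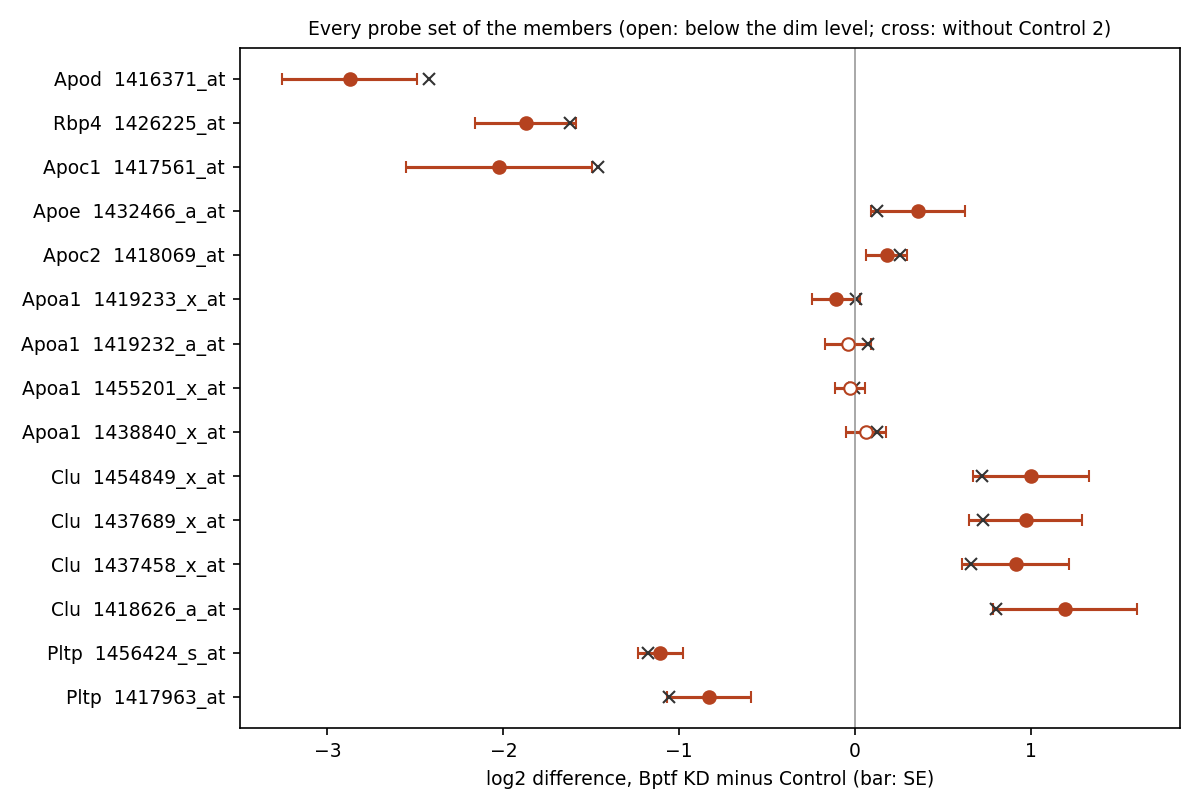
The x axis is the log2 difference, Bptf KD minus control, for each of the 15 probe sets of the 8 members, with bars of 1 SE, crosses at the difference without Control 2, and open circles for probe sets below the dim level. The 4 probe sets of Clu lie between 0.91 and 1.19, the 2 of Pltp at -1.11 and -0.83, and the 4 of Apoa1 around 0, 3 of them below the dim level.

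The members fell into groups by which tumours were high. For Apod, Rbp4 and Apoc1 the highest of each group were Bptf KD 2 and Control 2. The dim Apoc2, whose difference was 0.18, had the same tops. The mean level of the 8 measured genes of the adipocyte list, of 14 listed, showed the same tops, at 6.63, 7.74 and 7.14 in the Bptf KD tumours and 10.02, 10.83 and 9.80 in the controls. Lep, Cidec and Mrap averaged below the dim level in Bptf KD and were measured only through the controls, which fixes their direction. The other 5 were all negative, 4 of them called lower, with a median difference of -2.85. Over all genes 39.8% were negative and 0.660% called lower. The marker lists were chosen with earlier results of these data known, so nothing is read from the shares of their genes. Its brightest genes were Fabp4, the fatty acid carrier of adipocytes, at 10.67 ± 0.30 in Bptf KD and 13.51 ± 0.32 in control tumours, and Car3, a carbonic anhydrase abundant in fat, at 10.14 ± 0.28 in Bptf KD and 13.81 ± 0.30 in control tumours (SD, n = 3 each). Cidea and Pck1 were below the dim level. These tops were not particular to the adipocyte list. The means of 3 lists described below, of other apolipoproteins, retinoid genes and lipid-sensing regulators, had them too, with overlap between the groups. The mean of 4 keratinocyte genes, of 11 listed, was 7.52, 7.56 and 7.38 in the Bptf KD tumours and 7.16, 10.26 and 7.40 in the controls, in the order of Apod within both groups, and that of 4 neutrophil genes, of 10 listed, was 8.67, 9.06 and 8.91 in the Bptf KD tumours and 8.20, 8.995 and 8.16 in the controls. Neither of these 2 means separated the groups. The adipocyte mean did, but Lep, Cidec and Mrap fix a part of that separation. The fibroblast and hepatocyte means, given below, separated the groups as well. The part of these lists in the levels of Apod, Rbp4 and Apoc1 was not tested.

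Pltp followed another order. The mean of the 18 fibroblast and matrix genes was 10.26, 10.42 and 10.48 in the Bptf KD tumours, and 11.29, 11.27 and 11.50 in the controls. The order of the tumours within each group was that of the brighter Pltp probe set. The second Pltp probe set had this order only among the controls, with Bptf KD 2, at 6.65, above Bptf KD 3, at 6.61. All 18 genes of the list were negative and 5 were called lower, against 39.8% and 0.660% of all genes. Their median difference was -0.86. Col3a1, a fibrillar collagen and the brightest of the list, averaged 13.81 ± 0.15 in Bptf KD and 14.72 ± 0.10 in control tumours (SD, n = 3 each, limma adjusted p = 0.0434). Dcn, the matrix proteoglycan decorin, averaged 11.76 ± 0.34 in Bptf KD and 13.46 ± 0.30 in control tumours (SD, n = 3 each, limma adjusted p = 0.0385). Col1a2, the second brightest of the list, averaged 12.95 ± 0.23 in Bptf KD and 13.85 ± 0.43 in control tumours (SD, n = 3 each). It did not pass (limma adjusted p = 0.181). The part of this list in the level of Pltp was not tested.

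For Apoe the order of the tumours within each group was that of the macrophage list. The mean of its 15 measured genes, of 16, was 11.08, 10.92 and 11.26 in the Bptf KD tumours, and 11.23, 11.00 and 11.04 in the controls, ranges that overlap. Clu had this order among the controls, and Bptf KD 3 was again the highest of its group. Of the 15 genes 4 were negative and 11 positive, with a median difference of 0.24. By limma 0 were called and 5 had an unadjusted p below 0.05, which 13.5% of all genes reached. Lyz2, the lysozyme of myeloid cells, averaged 14.69 ± 0.07 in Bptf KD and 14.43 ± 0.15 in control tumours (SD, n = 3 each), and C1qa, a complement subunit, 13.83 ± 0.04 in Bptf KD and 13.57 ± 0.13 in control tumours (SD, n = 3 each). The largest differences of the list ran the other way. Cd163, the haemoglobin scavenger receptor, averaged 8.56 ± 0.53 in Bptf KD and 10.69 ± 0.62 in control tumours, and Mrc1, the mannose receptor, 11.78 ± 0.23 in Bptf KD and 12.53 ± 0.22 in control tumours (SD, n = 3 each), both without overlap and neither past the test (limma adjusted p = 0.0637 for Cd163 and 0.136 for Mrc1). The order of Apoe was not particular to the macrophage list. The list of lipoprotein receptors and uptake proteins had it within both groups. Its means were 9.37, 9.315 and 9.46 in the Bptf KD tumours and 9.935, 9.63 and 9.68 in the controls, without overlap. Among the controls the endothelial list also had this order, at 7.80, 7.49 and 7.58. The part of these lists in the levels of Apoe and Clu was not tested.

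**Figure D4:**
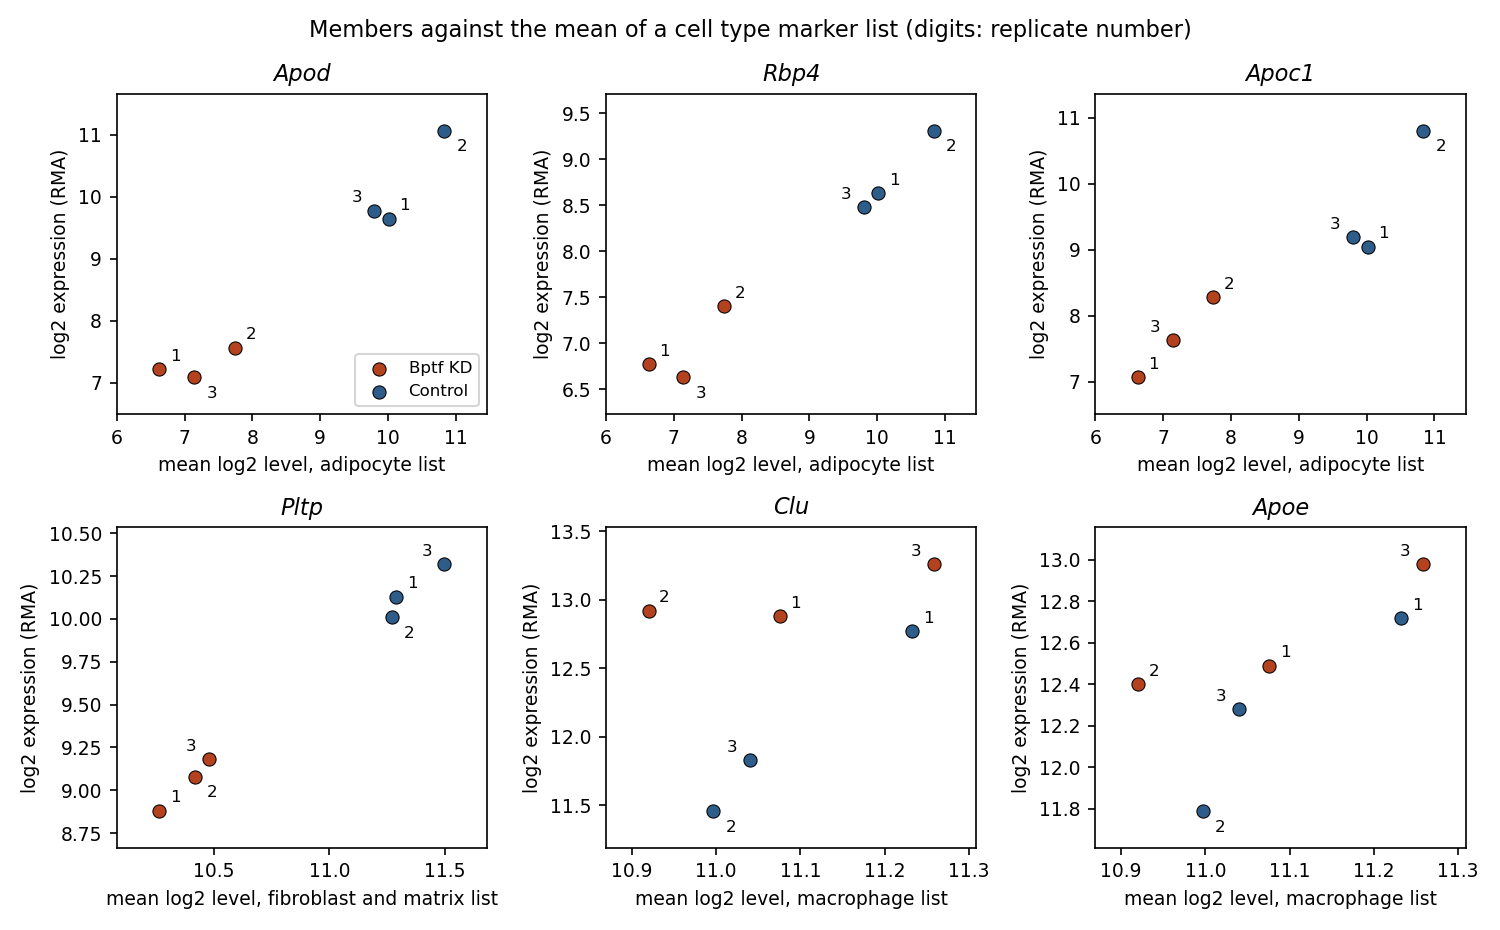
In each panel the x axis is the mean log2 level of a marker list and the y axis the log2 level of a member, 1 point a tumour with its replicate number, Bptf KD in red and control in blue. Apod, Rbp4 and Apoc1 are set against the adipocyte list and Pltp against the fibroblast and matrix list, where the groups lie apart on both axes, and Clu and Apoe against the macrophage list, where they overlap on the x axis.

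Other marker lists also separated or set apart tumours. Of 12 hepatocyte genes, from the main source of plasma Rbp4 and Apoa1, 3 had a mean above the dim level, of which Fgg and Cyp2e1 lay below it in every Bptf KD tumour and passed the filter only through the controls, which fixes their direction. The third, Serpina1b, was called lower, with a difference of -1.14 (limma adjusted p = 0.0497), and the mean of the 3 ran from 5.41 to 5.80 in Bptf KD and 7.22 to 7.54 in control tumours. The defining genes Alb, Ahsg, Fga and Fgb were below the dim level. Control 2 was the highest of the 6 tumours for skeletal muscle genes, whose mean over 15 genes was 6.14 to 9.19 in Bptf KD and 6.26 to 11.34 in control tumours with 0 called, and for keratinocyte genes, whose mean over 4 genes was 7.38 to 7.56 in Bptf KD and 7.16 to 10.26 in control tumours with 0 called. The means ran from 8.67 to 9.06 in Bptf KD and 8.16 to 8.995 in control tumours over 4 neutrophil genes with 0 called, and from 8.88 to 8.94 in Bptf KD and 8.64 to 8.92 in control tumours over 3 Schwann cell genes with 0 called. They ran from 7.49 to 7.55 in Bptf KD and 7.49 to 7.80 in control tumours over 10 endothelial genes, with 1 called lower. This was Tek, which lay below the dim level in Bptf KD and passed the filter only through the controls, which fixes its direction. Over 7 mammary epithelial genes, with 0 called, the means ran from 10.41 to 10.51 in Bptf KD and 10.39 to 10.60 in control tumours. Where 0 genes were called by limma, an unadjusted p below 0.05 was reached by 3 of the mammary epithelial genes and by 0 of the muscle, keratinocyte, neutrophil and Schwann cell genes. The part of these lists in the levels of the members was not tested.

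The genes whose levels over the 6 tumours were most like those of each member, among 9247 others, were found by the highest Pearson r. The 6 points share the same split into 2 groups and the same arrays, so r is a description. For Apod they were Tspan12, a membrane protein of the tetraspanin family, at 0.999, and Fmr1 at 0.994. For Pltp they were Plpp3, a lipid phosphate phosphatase, at 0.998 and Col6a3, a chain of collagen VI, at 0.991, and both were called lower, with differences of -1.53 for Plpp3 and -1.22 for Col6a3. For Rbp4 they were Lmna at 0.998 and Ccr7 at 0.997, and for Apoc1 the lectin Cd209f at 0.997 and Impdh1 at 0.996. Clu was most like Gpm6b at 0.993 and C1qc at 0.991, a complement subunit of macrophages, and Apoe most like Rab2b at 0.993 and Ggnbp2 at 0.989. The dim members Apoc2 (Pold4 at 0.995, Ube2e2 at 0.994) and Apoa1 (Muc1 at 0.996, Kcnj11 at 0.993) gave values as high, so a high r over 6 tumours does not set a gene apart.

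The proteins that act on the same particles were read from 8 lists of 140 genes, of which 86 were measured. Of these, 4 were called lower and 0 higher by limma, 4.65% lower against the 0.660% over all genes, and 25 had an unadjusted p below 0.05, which 13.5% of all genes reached. Their differences were negative for 46 and positive for 38, while 39.8% of all genes had a negative one. The median difference was -0.03 over the 86 genes. Each of the called genes stood alone in its list. The lists were chosen with earlier results of these data known, so nothing is read from the shares of their genes.

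Among 12 measured receptors and uptake proteins 1 was called lower. Cd36, the fatty acid and lipoprotein scavenger receptor, gave 6.74, 8.11 and 7.34 in the Bptf KD tumours, and 10.49, 11.05 and 10.09 in the controls, with a difference of -3.15 (limma adjusted p = 0.0281). Its highest tumours were Bptf KD 2 and Control 2, as for Apod. Scarb1, the HDL receptor, averaged 9.33 ± 0.08 in Bptf KD and 9.93 ± 0.06 in control tumours (SD, n = 3 each), which missed the threshold (limma adjusted p = 0.0804). Over this list the median difference was -0.07.

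Among 11 lipases and their partners 1 was called lower. Lpl, the lipoprotein lipase that Apoc2 activates, gave 8.32, 9.31 and 8.62 in the Bptf KD tumours, and 12.07, 12.35 and 11.64 in the controls. These groups lay more than their own spread apart, with a difference of -3.27 (limma adjusted p = 0.00986), and the highest tumours were again Bptf KD 2 and Control 2. Lipe, hormone-sensitive lipase, averaged 6.75 ± 0.05 in Bptf KD and 7.65 ± 0.29 in control tumours (SD, n = 3 each), which missed the threshold (limma adjusted p = 0.0702). Over this list the median difference was -0.33.

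Of 16 lipid transfer and related lipid-binding proteins 1 was called lower, with a median difference of 0.09. Lbp, the lipopolysaccharide binding protein of the same protein family as Pltp, averaged 8.17 ± 0.05 in Bptf KD and 10.24 ± 0.35 in control tumours (SD, n = 3 each), a difference of -2.07 (limma adjusted p = 0.00986). Control 3 was the highest for Lbp, as it was for Pltp. Bpifb1, another gene of that family, averaged 7.12 ± 0.19 in Bptf KD and 6.65 ± 0.13 in control tumours (SD, n = 3 each) and did not pass (limma adjusted p = 0.235). Of 8 efflux transporters 1 was called lower, with a median of -0.09. Abca8a, a transporter of the ABCA subfamily, averaged 6.12 ± 0.20 in Bptf KD and 8.05 ± 0.40 in control tumours (SD, n = 3 each), a difference of -1.93 (limma adjusted p = 0.0208). In Bptf KD this gene was near the dim level, with a mean just above it and Bptf KD 2 and 3, at 5.96 and 6.05, below it. It was not tested under the 50% filter, and its dim levels in Bptf KD limit what can be read from the size of the difference. Abca1, which loads lipid onto Apoa1 and Apoe, averaged 11.28 ± 0.13 in Bptf KD and 11.75 ± 0.15 in control tumours (SD, n = 3 each) and did not pass (limma adjusted p = 0.211).

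In the other 4 lists 0 genes passed, by limma, and an unadjusted p below 0.05 was reached by 2 other apolipoproteins, 1 lipocalin, 3 retinoid genes and 2 regulators. Of 7 other apolipoproteins the median difference was 0.05, and besides Apoc4 the smallest p belonged to Apoa2, an HDL protein, at 6.29 ± 0.09 in Bptf KD and 6.58 ± 0.10 in control tumours (SD, n = 3 each). Of the other lipocalins 10 of 12 have a probe set and 2 passed the filter. Lcn2, the iron-siderophore carrier made in inflammation, gave 12.72, 11.82 and 12.40 in the Bptf KD tumours, and 11.44, 8.34 and 9.65 in the controls. All Bptf KD tumours lay above all controls, opposite to the lipocalins Apod and Rbp4, but the spread of the controls was wide and the difference of 2.50 did not pass (limma adjusted p = 0.211), and it was 1.77 without Control 2. Ptgds, the other measured lipocalin, differed by -0.16 (limma adjusted p = 0.688). Orm1, the acute-phase protein orosomucoid and also a lipocalin, was left out by the filter, with 4.52, 5.11 and 4.62 in the Bptf KD tumours, all below the dim level, and 6.98, 8.38 and 6.09 in the controls. Its highest tumours were Bptf KD 2 and Control 2, as for Apod and Rbp4.

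Of 16 retinoid genes the median difference was 0.01. Rbp7, an intracellular retinol binding protein, averaged 6.43 ± 0.28 in Bptf KD and 7.70 ± 0.35 in control tumours (SD, n = 3 each), and Rarres2, which encodes the adipokine chemerin, 10.81 ± 0.82 in Bptf KD and 12.64 ± 0.40 in control tumours (SD, n = 3 each). Neither passed (limma adjusted p = 0.0637 for Rbp7 and 0.125 for Rarres2). Of 14 lipid-sensing receptors and regulators the median was -0.04. Pparg, the nuclear receptor of fat cell differentiation, averaged 5.67 ± 0.28 in Bptf KD and 6.83 ± 0.36 in control tumours (SD, n = 3 each, limma adjusted p = 0.0836), and so lay below the dim level in Bptf KD. Cebpb, a C/EBP factor, averaged 13.19 ± 0.06 in Bptf KD and 12.61 ± 0.35 in control tumours (SD, n = 3 each, limma adjusted p = 0.253). Unadjusted p lay below 0.05 for both, the 2 regulators counted above. Pparg, however, passed the filter only through the controls, which fixes its direction, so nothing is read from its p.

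Without 1 Bptf KD tumour the calls of Cd36, Lbp and Abca8a ended whichever was left out, and that of Lpl ended without Bptf KD 1 or 3, at adjusted p between 0.0506 and 0.141. Cd36 also lost its call without Control 1 (0.0519) or Control 3 (0.0631), and Abca8a without Control 3 (0.0736).

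**Figure D5:**
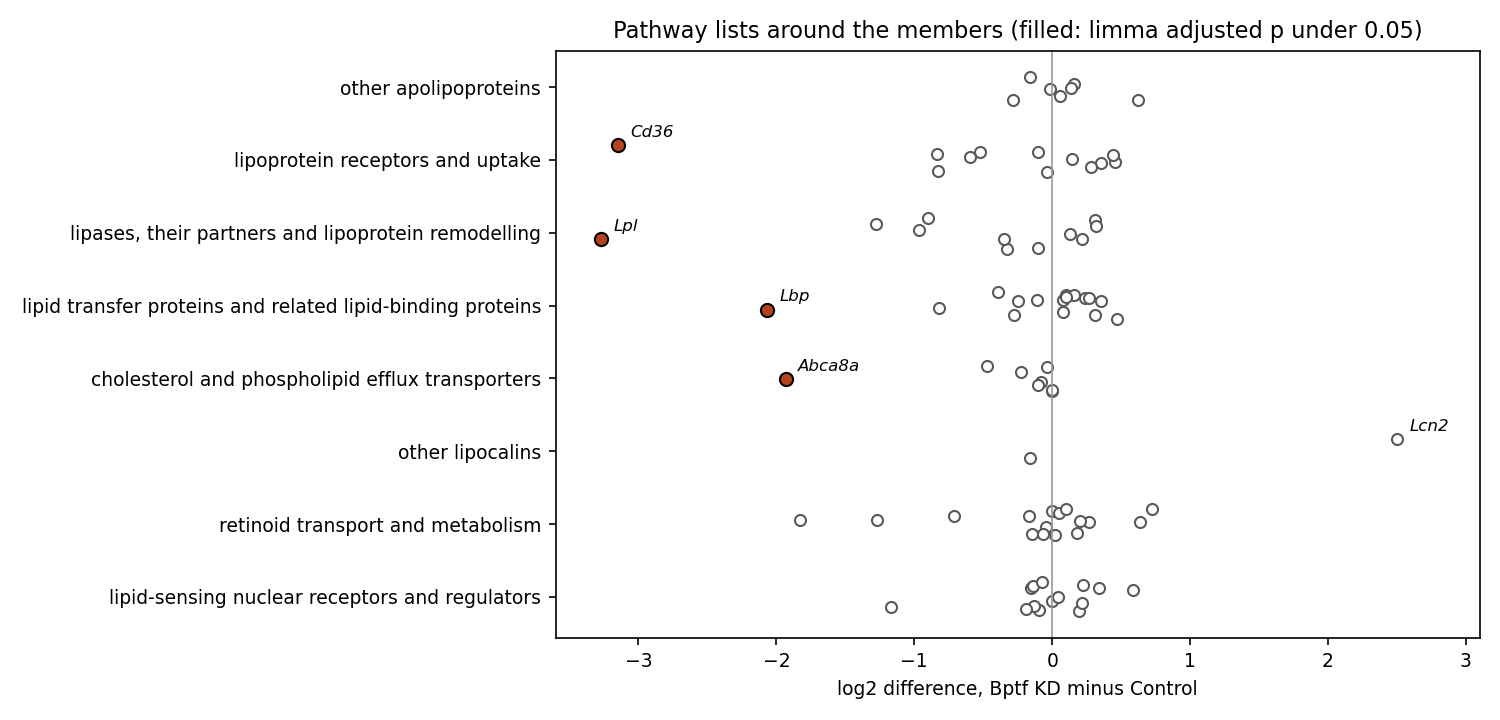
The x axis is the log2 difference, Bptf KD minus control, and each row a pathway list with 1 point a measured gene, filled where limma's adjusted p was below 0.05. The filled points are Cd36, Lpl, Lbp and Abca8a, all on the lower side, while Lcn2, at 2.50, did not pass.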

How the data were processed

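The deposited values are log2 expression levels of probe sets, made by the authors with RMA (version not stated), per the submitters' processing notes. The logarithm's base, which the sources used here do not give, was taken as 2. The deposited table holds 22690 probe sets, 64 of them manufacturer's controls. GEO's platform annotation, updated through a RefSeq gene table of GRCm38.p6 that changed 0 symbols, named 1 gene for 20380 probe sets and more than 1 for 691, while 1555 stayed unnamed here.

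The probe set with the highest mean stood for a gene, and means in the lowest 30% (log2 of 6.09 or less) were left out. Bptf KD minus control was fitted over all 9248 genes in R 4.3.3 with lmFit and eBayes of limma 3.58.1 and no covariate. The threshold was a Benjamini-Hochberg adjusted p of 0.05. Adjusted p-values are from this fit unless another setting is named, and the procedure was tested on simulated data. Differences of single probe sets come from the same model over all probe sets. Motifs were searched and figures drawn with Python 3.11.15.

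The members, the lists and the alternatives were chosen with earlier results of these data known. The rule for names took the members, Bptf, the 2 genes most like each member, the genes past the threshold or with the 2 smallest p of each pathway list, and the 2 brightest genes of marker lists that move with a member. Krt8, Epcam, the milk protein genes, Cd163, Mrc1, Dcn, Orm1 and a few defining markers were named outside it, after their values were seen. The labels call the tumours biological triplicates. The sources used here do not say whether each came from a separate mouse, so p-values measure the spread between these samples, and the number of arrays limits the precision.

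The alternatives were no filter or a 50% filter, the mean or the most variable probe set of a gene, median centring, a second quantile normalisation, robust eBayes with a trend, weights for the arrays, a block for the replicate number, and each tumour left out in turn. No genome and no protein table were used here.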

Additional observations from a re-analysis of the deposited data

How the results depend on the processing

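Of 75 genes called, the stricter filter on dim probe sets left 42, and array weights called 1676. Of the 75, 61 were lower and 14 higher, against 690 lower and 986 higher with array weights and 233 lower and 179 higher without Control 2. The count ran from 0 (without Bptf KD 3, where 742 genes had an unadjusted p below 0.05 by limma) to 412 (without Control 2) when each tumour was left out in turn, and was 2, 6 and 10 in the absence of Bptf KD 1, Bptf KD 2 and Control 3. Of the 3 members called, array weights gave 5, with Apoc1 (adjusted p = 0.0106) and Clu (0.0202) added, and leaving out tumours gave 0 to 3. It was 0 without each Bptf KD tumour and without Control 3, where 4 or 5 members had an unadjusted p below 0.05. The difference of Apoa1, -0.11, was 0.0767 with array weights and -0.21 to 0.0067 with tumours left out. Among the alternatives run, the other 7 members kept their direction in each.

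The replicate block called 107 genes and 4 members, with Apoc1 added (adjusted p = 0.0225). Deviations from the group means of same-numbered tumours correlated at 0.04, 0.31 and 0.35. The sources used here do not say whether same-numbered tumours share more than a number, and what lies behind these values was not tested. Apoc2 and Apoa1 were not tested under alternatives whose filter they missed, and the dim levels of both limit what can be read from them.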
